A study of Mus musculus with 10 samples.

Results

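Mutant set 2 is 1 of 3 numbered sets of mouse embryonic stem cell libraries with the ANKRD11 Y347A mutation, and it is described here by what separates it from mutant sets 1 and 3 on the autosomes. It holds 2 of the 6 mutant libraries and 2 of the 10 libraries of the series. Sets 1 and 3 hold 2 libraries each, and the 4 wild-type libraries serve only as a reference level. All 10 libraries came from untreated E14 cells, a line derived from a mouse blastocyst, and measured poly(A) RNA. The mutation, introduced with CRISPR/Cas9, replaces a tyrosine of ANKRD11 with alanine, and the series as a whole asks how it changes expression. Wild-type libraries fall into sets 1 and 2 with 2 libraries each. What a set stands for, such as a clone or a separate culture, is not given by the labels, so p-values measure only the spread between these libraries, which may be technical. Levels are TPM (transcript abundances scaled by transcript length to 1 fixed total per library), so sequencing depth is unknown. A gene was tested where its mean over the 6 mutant libraries was at least 1 TPM, which kept 12259 autosomal genes. A difference is set 2 minus the mean of sets 1 and 3 on the log2(TPM + 1) scale, given ± SE, and this scale understates changes of low genes.

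ANKRD11 is a large ankyrin-repeat protein of the nucleus that takes part in transcriptional regulation. Its contact with cohesin is the subject of the series, cohesin being the complex that holds chromatin loops and sister chromatids. Mouse embryonic stem cells keep a pluripotent state through a network of transcription factors, among them the products of Pou5f1, Sox2 and Nanog. Sublines of such cells are known to differ in imprinted genes, which are expressed from the maternal or the paternal copy according to inherited DNA methylation.

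The libraries of set 2 expressed stem cell genes at the level of the other mutant libraries. The summed TPM of 8 stem cell markers was 9814 and 9995 in set 2 and lay between 9698 and 11540 in sets 1 and 3. Of 8 fibroblast markers, 2 reached 1 TPM in any mutant library and Dcn and Postn were at 0 in all of them, with summed TPM of 5.67 and 5.6 in set 2 against 6.29 to 6.68 in sets 1 and 3. Their part in the differences below was not tested. The 13 mitochondrially encoded mRNAs made up 8.61% of all TPM in set 2 and 7.34% in sets 1 and 3, and cytosolic ribosomal protein genes 24.5% and 25.9%. Between 12473 and 12812 genes reached 1 TPM in a mutant library, with the 2 lowest numbers in set 2. Ankrd11 itself had 53.9 and 53.4 TPM in set 2, 69.0 and 60.5 in set 1, 61.4 and 60.7 in set 3, and 58.0 to 66.0 in wild-type libraries. Both set 2 values lay below all others, yet the difference of -0.22 ± 0.06 did not pass the test (limma, Benjamini-Hochberg adjusted p = 0.0734). These levels do not check the mutation, which changes a codon.

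Set 2 differed from both other mutant sets at many genes by small amounts and at a few by large ones. Of the 12259 autosomal genes, 1163 (9.49%) passed a limma fit over the 6 libraries at a Benjamini-Hochberg adjusted p under 0.05, 516 (4.21%) of them higher and 647 (5.28%) lower in set 2. In 1133 of them (9.24%) both set 2 libraries also lay above or both below all 4 libraries of sets 1 and 3, and these are called set apart: 506 (4.13%) were higher in set 2 and 627 (5.11%) lower. Values outside the other 4 libraries, whatever the test gave, were found at 4097 genes (33.4%). Most of the set apart genes moved little. Their median absolute difference was 0.37, against 0.13 over all tested genes. A difference of at least 1 was reached by 13 higher and 31 lower genes, and of at least 0.5 by 101 higher and 233 lower genes. The plot of difference against level shows the large changes at low and moderate levels and many small ones at high levels.

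**Figure D1:**
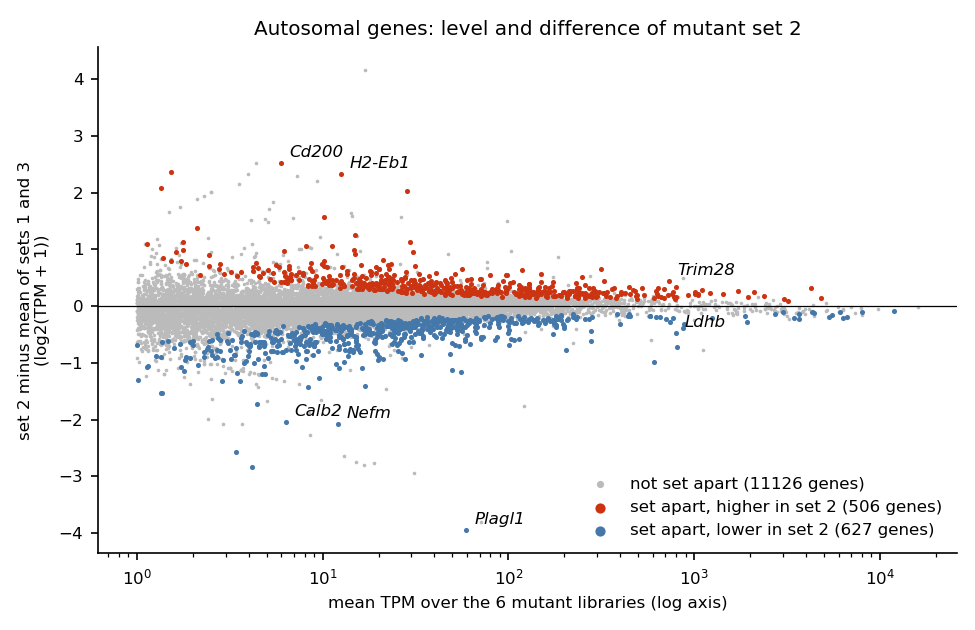
Difference of mutant set 2 from the mean of sets 1 and 3 (log2(TPM + 1)) against the mean TPM over the 6 mutant libraries (log axis), with 1 point per autosomal gene tested; red points are the 506 genes set apart and higher in set 2, blue points the 627 set apart and lower. Plagl1, the lowest blue point, lies at -3.95.

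The number of genes depended strongly on which libraries entered. Leaving out the first or second library of set 1 gave 746 or 643 set apart genes. Without the first or second library of set 3 there were 134 or 124, and with 1 library of set 2 left there were 35 (without the first) or 61 (without the second), where the lone library was assumed to vary like the others. Set 2 against set 3 alone gave 624 and against set 1 alone 89. The counts of the gene lists given below moved in the same way. Over 33 lists with at least 15 tested genes, 102 members were set apart and higher and 87 lower, where a gene in several lists counts in each. These sums became 79 and 57 or 57 and 58 without a library of set 1, 20 and 13 or 20 and 12 without a library of set 3, and 2 and 5 or 6 and 8 without a library of set 2, and they were 55 and 66 against set 3 alone and 13 and 12 against set 1 alone. When each set counted as 1 value, so that the spread was that between sets 1 and 3, 23 genes (0.188%) passed, of which 15 were predicted genes or pseudogenes, and 1025 had an unadjusted p under 0.05. Plagl1, Nefm, Cd200, Immp2l and H2-Eb1 were the 5 other genes that passed both fits and were set apart. In pairwise contrasts within the fit over libraries, 994 genes (8.11%) passed between sets 2 and 1, 850 (6.93%) between sets 2 and 3, and 151 (1.23%) between sets 3 and 1. The first 2 contrasts share the set 2 libraries. Against set 1 and set 3 alike, in the same direction, 397 genes passed (3.24%), 180 (1.47%) higher and 217 (1.77%) lower. The median absolute log2 difference between libraries was 0.089 within set 2, 0.087 within set 3 and 0.12 within set 1. Between a library of set 2 and one of another mutant set it was 0.16 to 0.18, and between sets 1 and 3 it was 0.13 to 0.17.

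Plagl1, an imprinted gene for a zinc finger transcription factor that is expressed from the paternal copy, was the most strongly lowered of the set apart genes. It lies on chromosome 10 from 13060504 to 13131694 (GENCODE M21 on GRCm38, plus strand). Its TPM was 3.87 and 4.78 in set 2, 60.8 and 51.2 in set 1, 117 and 117 in set 3, and between 112 and 174 in wild-type libraries. The set 2 libraries were the lowest of all 10, and the 3 mutant sets did not overlap. The mean of set 2 was 20.03-fold below that of sets 1 and 3 (difference -3.95 ± 0.10, limma adjusted p = 0.000200). Sets 1 and 3 also differed from each other by 1.06 (limma adjusted p = 0.0232). Its nearest tested neighbours, Sf3b5 51.3 kb before it and Ltv1 46.4 kb after it, had differences of -0.05 and 0.14 and did not pass. Of 7 other tested genes within 500 kb, 1 was set apart, where the share over all tested genes was 9.24%. It was Fuca2, a fucosidase, which was lower by 0.49. The promoter of Plagl1 is shown because imprinted promoters are regulated through methylation of CG dinucleotides. The window runs from 250 bases before the RefSeq start to 50 after it (RefSeq, GRCm38.p6, chr10:13090582-13090881, plus strand), with every CG in capitals.
Plagl1: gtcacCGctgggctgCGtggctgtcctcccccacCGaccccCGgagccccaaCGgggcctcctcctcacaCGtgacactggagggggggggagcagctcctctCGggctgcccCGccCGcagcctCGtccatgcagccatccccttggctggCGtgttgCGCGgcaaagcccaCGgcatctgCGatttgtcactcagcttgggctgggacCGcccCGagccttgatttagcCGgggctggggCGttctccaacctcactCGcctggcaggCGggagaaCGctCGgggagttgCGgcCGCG
It holds 26 CG dinucleotides, more than 83.1% of the 32851 promoters of the same length, whose median is 7. No methylation was measured in these files.

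H2-Eb1 and H2-Ab1, neighbours on chromosome 17 that encode beta chains of MHC class II molecules, were both higher in set 2. H2-Eb1 (34305867 to 34316674, plus strand) had 28.3 and 27.6 TPM in set 2, 4.06 and 4.93 in set 1, 4.53 and 5.79 in set 3, and 29.5 to 47.4 in wild-type libraries. Sets 1 and 3 overlapped each other far below set 2, which lay just under the lowest wild-type library. The set 2 mean was 5.78-fold that of sets 1 and 3 (difference 2.32 ± 0.12, limma adjusted p = 0.00138). H2-Ab1, 36.4 kb away, had 9.17 and 9.96 TPM in set 2, 5.02 and 5.89 in set 1, 3.52 and 3.46 in set 3, and 5.75 to 8.76 in wild-type libraries. Here set 2 was the highest of all sets (difference 0.97 ± 0.10, limma adjusted p = 0.00734). Class II genes are normally switched on by the coactivator CIITA through promoter elements called the X box and the Y box. Other genes of this system were looked at after these values were seen. H2-Aa, the gene of an alpha chain, stayed at or below 0.33 TPM in every mutant library, and Ciita was at 0.60 and 0.52 TPM in set 2 and 0.62 to 0.80 TPM in sets 1 and 3. Both were too low for testing. Cd74, the invariant chain, had 0.81 and 0.76 TPM in set 2 and 0.89 to 1.38 in the other mutant libraries. Rfx5, whose product binds the X box, had 9.21 and 8.16 TPM in set 2 and 7.08 to 9.90 in sets 1 and 3, and neither it nor Cd74, H2-DMa or H2-DMb1 passed the test. Within 500 kb of H2-Eb1, 39 other genes were tested, of which 4 were set apart and higher and 4 set apart and lower. Over all tested genes these shares were 4.13% and 5.11%. The H2-Eb1 promoter window (RefSeq, GRCm38.p6, chr17:34305617-34305916, plus strand) is shown for 2 letter patterns known from class II promoters, TAGCAAC from the X box and CCAAT from the Y box, each searched on both strands with any overlap allowed and given in capitals.
H2-Eb1: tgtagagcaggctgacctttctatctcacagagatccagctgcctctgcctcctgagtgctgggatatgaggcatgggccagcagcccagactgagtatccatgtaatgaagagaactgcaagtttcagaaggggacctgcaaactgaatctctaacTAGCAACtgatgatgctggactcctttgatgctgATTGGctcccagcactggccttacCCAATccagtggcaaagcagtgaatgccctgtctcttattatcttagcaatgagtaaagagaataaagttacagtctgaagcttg
The X box pattern occurs 1 time and CCAAT 2 times, 1 of them as its reverse complement ATTGG. Of all 32851 promoter windows, 3.66% hold the X box pattern, 37.4% the Y box pattern and 1.46% both.

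Genes are named below by a rule, the 14 set apart genes furthest above and the 14 furthest below both other mutant sets, with predicted genes and pseudogenes passed over, and up to 4 set apart genes from each of a series of gene lists. Cd200, a cell surface glycoprotein of the immunoglobulin family, led the raised genes. It had 15 and 13.3 TPM in set 2, 1.40 and 1.09 in set 1, 3.91 and 0.96 in set 3, and 18.3 to 45.5 in wild-type libraries. Set 2 lay above every other mutant library and below every wild-type one, and the first library of set 3 stood apart from its partner (difference 2.52 ± 0.35, limma adjusted p = 0.0155). Islr2, a neuronal membrane protein with leucine-rich repeats, had 18.5 and 16.9 TPM in set 2 against 7.34 to 8.97 in the other mutant libraries and 2.58 to 4.42 in wild type. All mutant libraries were therefore above wild type, and set 2 was the highest (difference 1.05 ± 0.10, limma adjusted p = 0.00592). Trh, the precursor of thyrotropin-releasing hormone, had 44.3 and 47.0 TPM in set 2, 18.9 and 20.03 in set 1, with 27.1 and 27.1 in set 3. The sets did not overlap, and set 2 was 1.96-fold the mean of the others (difference 0.96 ± 0.05, limma adjusted p = 0.00173).

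Adnp, a homeodomain zinc finger protein of chromatin, had 20.9 and 23.6 TPM in set 2 and 10.3 to 12.0 in the other mutant libraries, with 14.8 to 19.6 in wild type. Set 2 was above all 8 other libraries (difference 0.91 ± 0.08, limma adjusted p = 0.00515). The predicted gene Gm20716 overlaps Adnp on the same strand and had 39.3 and 36.8 TPM in set 2 against 40.2 to 48.1 in sets 1 and 3, so the Adnp value is uncertain as to which of the overlapping genes its reads were assigned. Oas1a, an enzyme of the interferon response that makes oligoadenylates, had 33.4 and 31.1 TPM in set 2 against 18.4 to 19.5 in sets 1 and 3. Its near neighbour Oas1g was also set apart and higher. Oas1d, the neighbour on the other side, had a difference of -0.30 and did not pass. Reads of these closely related copies may be split between them, so their values are uncertain. Tbx21, a T-box transcription factor known from T cells, had 2.95 and 2.81 TPM in set 2 and 1.13 to 1.49 in sets 1 and 3. The genes on both sides of it on chromosome 11, Osbpl7 and Tbkbp1, were higher in set 2 too, by 0.61 and 0.55. Osbpl7 had 23.1 and 24.6 TPM in set 2 against 15.1 to 15.5 in the other mutant libraries. The other raised genes of the 14 were Fbp2, a fructose bisphosphatase, Zfp989, Ube2e2, a ubiquitin-conjugating enzyme, Ppp1r26, Etnk2, an ethanolamine kinase, and Lmo4, a LIM-domain transcriptional adaptor, with differences between 0.64 and 1.05. Zfp989 belongs to a family of near-identical zinc finger genes and its value is uncertain.

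**Figure D2:**
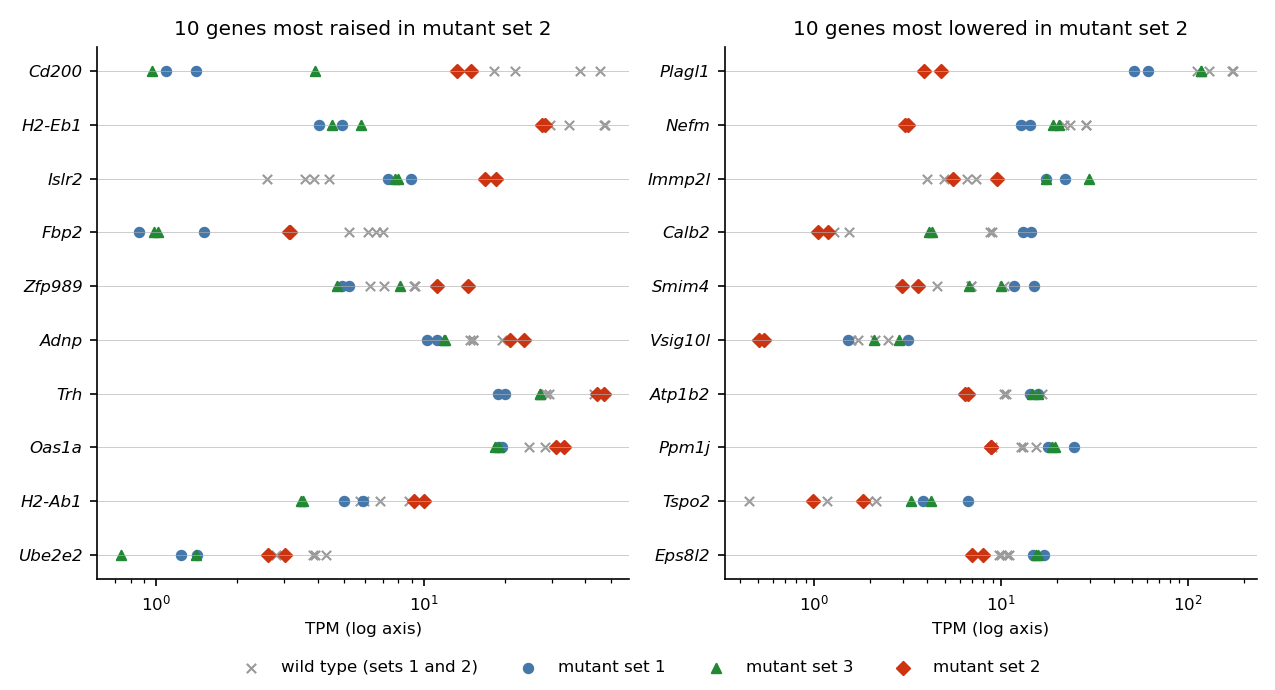
TPM per library (log axis) of the first 10 of the raised genes (left) and the first 10 of the lowered genes (right), ranked by the rule, with mutant set 2 as red diamonds, set 1 as blue circles, set 3 as green triangles and the 4 wild-type libraries as grey crosses. In each row both red points lie outside all blue and green points, as the rule requires, while the wild-type points fall on either side, as for Plagl1 (112 to 174 TPM) and Calb2 (1.28 to 8.89 TPM).

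Among the lowered genes Nefm, the medium chain of neurofilaments, came after Plagl1 in size of change among those that also passed with sets as units. It had 3.05 and 3.17 TPM in set 2, 14.3 and 12.8 in set 1, 18.96 and 20.46 in set 3, and 21.8 to 28.6 in wild-type libraries. Set 2 was the lowest of all 10 libraries, 5.34-fold under the mean of sets 1 and 3 (difference -2.08 ± 0.08, limma adjusted p = 0.00108). The overlapping Nefl, the light chain, had 14.45 and 13.95 TPM in set 2 and 17.4 to 22.6 in sets 1 and 3, a smaller step of -0.45 ± 0.06 (limma adjusted p = 0.0117). The sources used here do not state whether counting used strand, so reads of overlapping genes cannot be told apart. Calb2, the calcium-binding protein calretinin, had 1.05 and 1.19 TPM in set 2, 14.51 and 13.03 in set 1, with 4.25 and 4.12 in set 3. The mutant sets were again separate, and wild-type set 1 (1.28 and 1.53) was near set 2 while wild-type set 2 (8.69 and 8.89) lay between mutant sets 3 and 1 (difference -2.05 ± 0.10, limma adjusted p = 0.00138).

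Immp2l, a peptidase subunit of the inner mitochondrial membrane, had 5.56 and 9.53 TPM in set 2 against 17.3 to 29.5 in sets 1 and 3. Wild-type libraries were at 4.01 to 7.35 TPM, so that the first set 2 library lay within their range and the second above it (difference -1.41 ± 0.27, limma adjusted p = 0.0318). Atp1b2, a beta subunit of the sodium pump, had 6.41 and 6.65 TPM in set 2 and 14.2 to 15.8 in sets 1 and 3, and lies 7.9 kb from Trp53, which was higher in set 2. Eps8l2, a regulator of actin, had 7.98 and 6.99 TPM in set 2 and 14.9 to 17.0 in the others. In both cases set 2 was below every wild-type library as well. Smim4 had 2.94 and 3.61 TPM in set 2 and 6.71 to 15.1 in sets 1 and 3, and it overlaps Pbrm1, which did not pass (difference 0.08). Other lowered genes of the 14 were Vsig10l, Ppm1j, a protein phosphatase, Tspo2, Nudt12, which hydrolyses nicotinamide dinucleotides, Hpn, a membrane serine protease, and C8g, a complement chain, with differences of -0.90 to -1.18. The mean of set 2 was within the range of the 4 wild-type libraries for 2 of the 14 raised and 2 of the 14 lowered genes. It was above that range for 8 raised and 2 lowered genes and below it for 4 raised and 10 lowered genes. Of the 28 genes, 14 passed under every setting of the fit over libraries that kept all libraries and set no minimum difference. Plagl1, Nefm, Calb2, H2-Eb1 and Trh were among them. Of these 5, Calb2 and Trh did not pass with sets as units. With a minimum difference of 1, Trh was not called.

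A minority of the other imprinted genes was also set apart, most of them lower in set 2. Of 38 tested members, Plagl1 included, 9 were set apart and lower (23.7%, against 5.11% of all tested genes) and 2 were set apart and higher (5.26%, against 4.13%), with a median difference of -0.14 against -0.015 over all tested genes. The median was -0.03 against set 1 and -0.19 against set 3. The 9 lower genes became 4 against set 1 alone and 12 against set 3 alone, 2 or 3 without a library of set 2, and 4 with either library of set 3 left out. Zfp264, transcribed from an imprinted domain of chromosome 7, had 2.53 and 1.68 TPM in set 2 against 5.29 to 6.83 in the other mutant libraries. Nnat, a paternally expressed gene for a membrane proteolipid, had 1.26 and 1.57 TPM in set 2 against 3.05 to 4.14. Both lay below wild type, at 3.93 to 6.72 and 1.96 to 2.96 TPM. Zrsr1, a paternally expressed splicing factor gene, had 13.6 and 11.4 TPM in set 2 and 19.4 to 25.9 in sets 1 and 3. Impact, a translational regulator expressed from the paternal copy, had 68.3 and 74.0 TPM in set 2 and 104 to 127 in sets 1 and 3. The limma adjusted p was 0.00969 for Zfp264, 0.0126 for Nnat, 0.0194 for Zrsr1 and 0.00533 for Impact.

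For other imprinted genes, set 2 was close to 1 of the other mutant sets and far from the other. Grb10, an adaptor of growth factor receptors, had 2.03 and 2.06 TPM in set 2, 2.64 and 2.80 in set 3, with 10.5 and 9.06 in set 1. Sgce, a sarcoglycan, had 1.81 and 1.44 TPM in set 2, 2.08 and 2.55 in set 1, with 6.95 and 7.72 in set 3. Both passed as set apart, although most of the distance came from 1 of the other sets. The long non-coding RNAs Meg3 and Rian were at 154 and 147 and at 173 and 182 TPM in set 2, near set 1 (159 and 146, 154 and 150), while set 3 stood at 381 and 355 and at 366 and 360. Snrpn, Peg10 and Gab1 likewise passed the fit with set 2 not outside the other libraries. Those that were higher were Zdbf2, at 11.8 and 11.7 TPM against 7.26 to 8.30, and Gnas, at 123 and 119 against 98.7 to 110. Snurf, which shares a transcript with Snrpn, ranged from 0 to 122 TPM, and its value is uncertain.

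**Figure D3:**
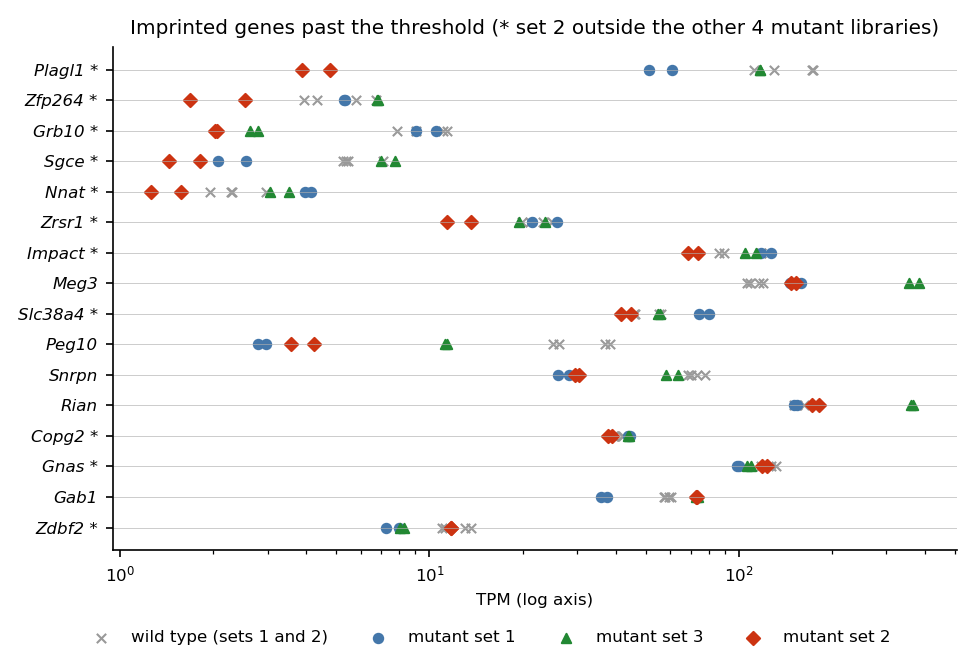
TPM per library (log axis) of the 16 imprinted genes with an adjusted p under 0.05, ordered by the difference of set 2, with symbols as for the leading genes. Stars mark the 11 genes whose set 2 libraries lie outside the other 4 mutant libraries, among them Plagl1 and Zrsr1; for Meg3 and Rian set 3 is the set that stands apart.

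Some genes of naive pluripotency were raised, while the central factors Pou5f1, Sox2 and Nanog did not pass. Of 27 tested, 6 were set apart and higher and 1 lower (22.2% and 3.70%, against 4.13% and 5.11% of all tested genes), with a median difference of 0.08. There was 1 higher gene with either library of set 2 left out, and against set 1 alone there were 2 and the median was 0.02. Trim28, a corepressor that silences retroelements and protects imprints, had 888 and 884 TPM in set 2, 682 and 675 in set 1, with 628 and 619 in set 3. Its set 2 values were near the wild-type range of 896 to 919 (difference 0.45 ± 0.02, limma adjusted p = 0.00159), and the call held in every fit without a library or a set. Zfp57, which guides TRIM28 to imprinted regions, had 327 and 327 TPM in set 2 against 242 to 291 in the other mutant libraries and 269 to 294 in wild type. Zfp42, a marker of the naive state, had 298 and 309 TPM in set 2, 218 to 251 in the others and 345 to 372 in wild type. Set 2 thus lay between the other mutant libraries and wild type for Zfp42 and above all other libraries for Zfp57. Pou5f1 was at 1157 and 1159 TPM in set 2 and 1026 to 1185 in the others, Sox2 at 288 and 275 against 275 to 298, Nanog at 354 and 355 against 312 to 352.

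Genes of the formative and primed epiblast, the stages that follow the naive state, had 5 of 16 tested members set apart and higher and 1 lower (31.2% and 6.25%, against 4.13% and 5.11% of all tested genes), with a median difference of 0.14. With either library of set 2 left out there were 0, and against set 1 alone there was 1 higher gene. Utf1, a chromatin-associated factor, had 46.1 and 48.5 TPM in set 2 and 31.1 to 33.7 in sets 1 and 3. Lefty2, an inhibitor of Nodal and itself a Nodal target, had 23.16 and 23.95 TPM in set 2, 18.58 and 18 in set 1, with 12.8 and 12.0 in set 3. All mutant libraries were far under the wild-type libraries, at 132 to 138 TPM, and set 2 was the nearest of them. Dnmt3l, the cofactor of the de novo DNA methyltransferases, had 207 and 211 TPM in set 2, 133 and 137 in set 1, with 179 and 181 in set 3, whereas Dnmt3a was lower, at 2.85 and 2.40 against 3.65 to 4.78. The limma adjusted p was 0.00684 for Utf1, 0.00702 for Lefty2, 0.00432 for Dnmt3l and 0.0387 for Dnmt3a.

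Among genes of the FGF-ERK, Nodal, TGF-beta and BMP, and Wnt pathways, the set apart members were higher with 1 exception, Ltbp3. Of 26 tested genes of the FGF-ERK pathway 4 were set apart, all higher (15.4%, against 4.13% of all tested genes), with a median difference of 0.19. They were the feedback inhibitors Dusp6 and Spry2 and the ETS factors Etv1 and Etv4. Dusp6 had 5.87 and 6.99 TPM in set 2 against 3.66 to 4.33, and Etv1 9.42 and 10.5 against 5.43 to 7.21. Against set 1 alone or set 3 alone, 0 of the 26 were set apart. Of 32 genes of Nodal, TGF-beta and BMP signalling 5 were higher and 1 lower (15.6% and 3.12%, against 4.13% and 5.11% of all tested genes). Among them the ligand Gdf3 had 37.8 and 39.9 TPM in set 2 against 27.1 to 31.6, and the transducer Smad2 18.03 and 19.82 against 13.95 to 15.33. Ltbp3, which binds latent TGF-beta in the matrix, was the lower one, at 9.21 and 9.72 against 13.3 to 17.4. Against set 1 alone 0 of the 32 were set apart, and against set 3 alone 1 was higher. Of 22 Wnt genes 3 were set apart, all higher (13.6%, against 4.13% of all tested genes). They were Tcf7l1, a repressor of Wnt targets, the inhibitor Apcdd1 and the receptor Fzd5. Against set 1 alone 0 of the 22 were set apart, and against set 3 alone 2 were higher. Tcf7l1 had 48.53 and 50.03 TPM in set 2 against 35.0 to 37.7 (difference 0.43 ± 0.05, limma adjusted p = 0.00984).

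Germline and meiosis genes were the list with the lowest median of those with at least 15 tested members. Of 21 tested, 6 were set apart and lower and 0 higher (28.6% and 0.0%, against 5.11% and 4.13% of all tested genes). Their median was -0.37 and stayed below 0 in all settings. Sohlh2, a helix-loop-helix factor of germ cells, had 2.75 and 3.35 TPM in set 2, 4.58 and 4.27 in set 1, 7.22 and 6.71 in set 3 and 9.24 to 17.0 in wild type. Stag3, the meiotic cohesin subunit, had 51.8 and 61.6 TPM in set 2 and 71.2 to 76.7 in the other mutant libraries, yet 27.2 to 38.4 in wild type. Wild type thus lay above set 2 for Sohlh2 and below it for Stag3. Stra8, a retinoid-induced gatekeeper of meiosis, had 3.58 and 4.26 TPM against 4.87 to 9.41. Rpl10l, a testis copy of a ribosomal protein gene, had 28.7 and 29.3 TPM in set 2, 50.8 and 48.8 in set 1, with 93.4 and 82.6 in set 3, and its similarity to Rpl10 makes its value uncertain. The count of 6 fell to 1 with either library of set 2 left out, with either library of set 3 left out, or against set 1 alone. Some genes of early lineages outside the epiblast were also set apart and lower. They were 2 of 12 primitive endoderm genes (Gm2a and Apoe) and 2 of 13 trophoblast genes (Gata2 and Tfap2c). These are 16.7% and 15.4%, against 5.11% of all tested genes. Against set 1 alone 1 primitive endoderm gene and 0 trophoblast genes were lower. Against set 3 alone 0 and 1 were lower, with 1 higher in each list. Of 6 primitive endoderm markers, 0 reached 1 TPM in a mutant library. The summed TPM of 4 trophoblast markers was higher in set 2, at 2.03 and 1.61 against 0.89 to 1.37. Gata2, a zinc finger factor, had 14.4 and 10.03 TPM in set 2 against 16.6 to 32.2, and Tfap2c 15.5 and 16.0 against 21.4 to 26.2. Ly6a, in the trophoblast list and known as a surface antigen of several stem and progenitor cells, went the other way, with 104 and 97.5 TPM against 61.4 to 78.6.

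A group of chaperone genes rose in set 2 by small amounts. Of 30 tested, 10 were set apart and higher and 2 lower (33.3% and 6.67%, against 4.13% and 5.11% of all tested genes). Their median was 0.10, with 0.09 against set 1 and 0.10 against set 3. Against set 3 alone 6 were higher and 1 lower. Hsph1, a nucleotide exchange factor of HSP70, had 65.1 and 66.3 TPM in set 2 against 39.8 to 48.8. Hspa8, the constitutive HSP70, had 1937 and 1937 TPM against 1498 to 1742, and Hspb1 773 and 800 against 628 to 654. For Hspa8 set 2 was between the other mutant libraries and the wild type (2051 to 2256). The higher members numbered 7 or 8 without a library of set 1, 2 without a library of set 3, 0 with either library of set 2 left out, and 0 against set 1 alone. Of 37 tested genes of the NRF2 response and glutathione metabolism, 8 were higher and 2 lower (21.6% and 5.41%, against 4.13% and 5.11%). Against set 1 alone 2 were higher and 1 lower, and against set 3 alone 4 were higher and 0 lower. Most of the 8 calls were lost with either library of set 2 left out. The median of 0.05 became 0.02 without the first library of set 2 and 0.09 without the second. Gpx1, a glutathione peroxidase, had 419 and 407 TPM in set 2, 290 and 288 in set 1, 248 and 233 in set 3, and 485 to 515 in wild type, so set 2 lay between the other mutant sets and wild type (difference 0.65 ± 0.04, limma adjusted p = 0.00173). Integrated stress and unfolded protein response genes were lower in 6 of 38 cases and higher in 1 (15.8% and 2.63%, against 5.11% and 4.13% of all tested genes). The median was 0.02 against set 1 and -0.16 against set 3. Against set 1 alone 0 were lower and against set 3 alone 11, and with either library of set 2 left out there were 0. Ddit3, the stress-induced factor CHOP, had 55.8 and 50.2 TPM in set 2, 64.8 and 74.0 in set 1, with 95.6 and 87.3 in set 3. Nupr1 had 51.0 and 57.5 against 68.6 to 89.7, and Slc3a2, the heavy chain of amino acid exchangers, 150 and 154 against 182 to 211. The 20 aminoacyl-tRNA synthetases, other targets of this pathway, had 0 set apart members, and their medians against set 1 and set 3 had opposite signs (0.09 and -0.10).

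Cell cycle genes had 9 higher and 2 lower members of 43 tested (20.9% and 4.65%, against 4.13% and 5.11% of all tested genes). With any 1 library of set 2 or set 3 left out, or against set 1 alone, 0 were set apart. The sliding clamp Pcna had 319 and 338 TPM in set 2 against 271 to 281, the helicase subunit Mcm3 220 and 223 against 183 to 196, and Ccne1, cyclin E1, 58.3 and 57.3 against 42.5 to 51.2. Set 2 was above all 4 other mutant libraries and below wild type for each of these (389 to 398, 227 to 242 and 79.0 to 87.7 TPM). The median over the list was only 0.03. It was 0.09 against set 1 and 0.01 against set 3. Against set 3 alone 4 cell cycle genes were higher and 2 lower. Among one-carbon genes 5 were higher and 3 lower of 28 (17.9% and 10.7%, against 4.13% and 5.11%). Tyms, thymidylate synthase, had 89.2 and 84.0 TPM against 56.2 to 67.0. Gcsh, a subunit of the glycine cleavage system, had 157 and 153 TPM in set 2 against 89.2 to 108 (difference 0.63 ± 0.05, limma adjusted p = 0.00357). The lower ones included both betaine-homocysteine methyltransferases, Bhmt at 3.25 and 3.22 against 5.07 to 6.11 and Bhmt2 at 7.85 and 6.59 against 8.89 to 11.5. These neighbouring paralogs are similar in sequence.

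Glycolytic and hypoxia-responsive genes had 10 lower and 3 higher members of 47 (21.3% and 6.38%, against 5.11% and 4.13% of all tested genes). The median was -0.09 against set 1 and -0.04 against set 3. Against set 3 alone 6 were lower and 3 higher. Against set 1 alone, or with either library of set 2 left out, 1 was lower and 0 higher. Ldhb, a lactate dehydrogenase subunit, had 617 and 643 TPM in set 2, 909 and 935 in set 1, 854 and 827 in set 3, and 225 to 268 in wild type. Set 2 was therefore the mutant set nearest to wild type (difference -0.48 ± 0.03, limma adjusted p = 0.00263), and the call held in every fit without a library or a set. Eno2, an enolase, had 10.4 and 9.46 TPM against 12.2 to 15.4, and Hk1, a hexokinase, 69.2 and 69.4 against 81.2 to 93.4. Of 36 lysosomal genes 4 were lower, among them the hydrolase Naglu and the saposin precursor Psap, and 1 was higher, Tfeb, a transcription factor that activates lysosomal genes. These are 11.1% and 2.78%, against 5.11% and 4.13% of all tested genes. Tfeb had 27.6 and 28.1 TPM in set 2 against 18.7 to 21.2, and Psap 163 and 162 against 183 to 199. Cytosolic ribosomal protein genes had 12 lower and 2 higher members of 81 (14.8% and 2.47%, against 5.11% and 4.13%). Their median was -0.06, and Rps15 had 5522 and 6008 TPM against 6417 to 6889. This count depended on scaling and on the sets compared. After median-of-ratios scaling 1 was lower and 2 were higher. Against set 1 alone 1 was lower and 0 higher, and against set 3 alone 1 was lower and 1 higher. The median was -0.11 against set 1 and -0.02 against set 3. Nuclear genes of the respiratory chain were divided evenly, with 2 higher and 2 lower of 72 (2.78% each, against 4.13% and 5.11%).

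Cytoskeletal and matrix genes were set apart in smaller numbers. Of 33 genes of the extracellular matrix and its receptors 3 were set apart, all lower (9.09%, against 5.11% of all tested genes). Col9a3, a collagen chain, had 4.38 and 3.10 TPM in set 2 against 6.32 to 8.55, and Serpinh1, a chaperone of collagen, 5.04 and 4.36 against 7.22 to 8.73. In the fibroblast list 1 of 9 was higher and 1 lower (11.1% each, against 4.13% and 5.11% of all tested genes). The lower one, Tgfbi, a secreted matrix protein induced by TGF-beta, had 2.92 and 2.59 TPM against 4.90 to 8.02. The intermediate filament gene Vim was the higher one, with 188 and 198 TPM in set 2, 120 to 144 in the other mutant libraries and 107 to 129 in wild type (difference 0.57 ± 0.08, limma adjusted p = 0.0139). Of 28 targets of SRF and YAP 3 were lower and 1 higher (10.7% and 3.57%, against 5.11% and 4.13% of all tested genes). Tagln2, an actin-binding protein, had 44.2 and 47.5 TPM against 53.1 to 79.5, whereas Actb, cytoplasmic actin, had 923 and 928 against 686 to 790, with 945 to 965 in wild type.

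The p53 list was divided, with 4 higher and 4 lower of 32 tested (12.5% each, against 4.13% and 5.11% of all tested genes) and a median of 0.00. Against set 3 alone 2 were higher and 1 lower. With any 1 library of set 2 or set 3 left out, or against set 1 alone, 0 were set apart. Plk2, a kinase induced by p53, was higher at 20.9 and 21.8 TPM against 15.4 to 16.8, as was Trp53 itself, and Rrm2b, a ribonucleotide reductase subunit, was lower at 3.09 and 3.06 against 4.34 to 5.34. Of 17 genes of the interferon response and antigen presentation 3 were higher and 1 lower (17.6% and 5.88%, against 4.13% and 5.11%). Beside Oas1a, the RNA sensor gene Ddx58 had 6.76 and 6.85 TPM in set 2 against 4.44 to 5.03, while Ifitm2, a membrane protein that restricts viruses, had 700 and 684 against 783 to 835. In the retinoid list 1 of 12 was higher and 1 lower (8.33% each, against 4.13% and 5.11%). The receptor gene Rarg had 25.3 and 24.8 TPM in set 2 against 15.9 to 16.8, above wild type at 11.6 to 14.4 (difference 0.58 ± 0.05, limma adjusted p = 0.00592). Fatty acid synthase, Fasn, was the 1 of 32 genes of cholesterol and fatty acid synthesis that was set apart, at 116 and 118 TPM against 87.5 to 95.8. That share of 3.12% was below the 4.13% of all tested genes. Of 78 mitochondrial ribosomal protein genes 5 were higher and 1 lower (6.41% and 1.28%, against 4.13% and 5.11%). Mrpl20 had 100.1 and 100.5 TPM against 76.01 to 86.8.

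**Figure D4:**
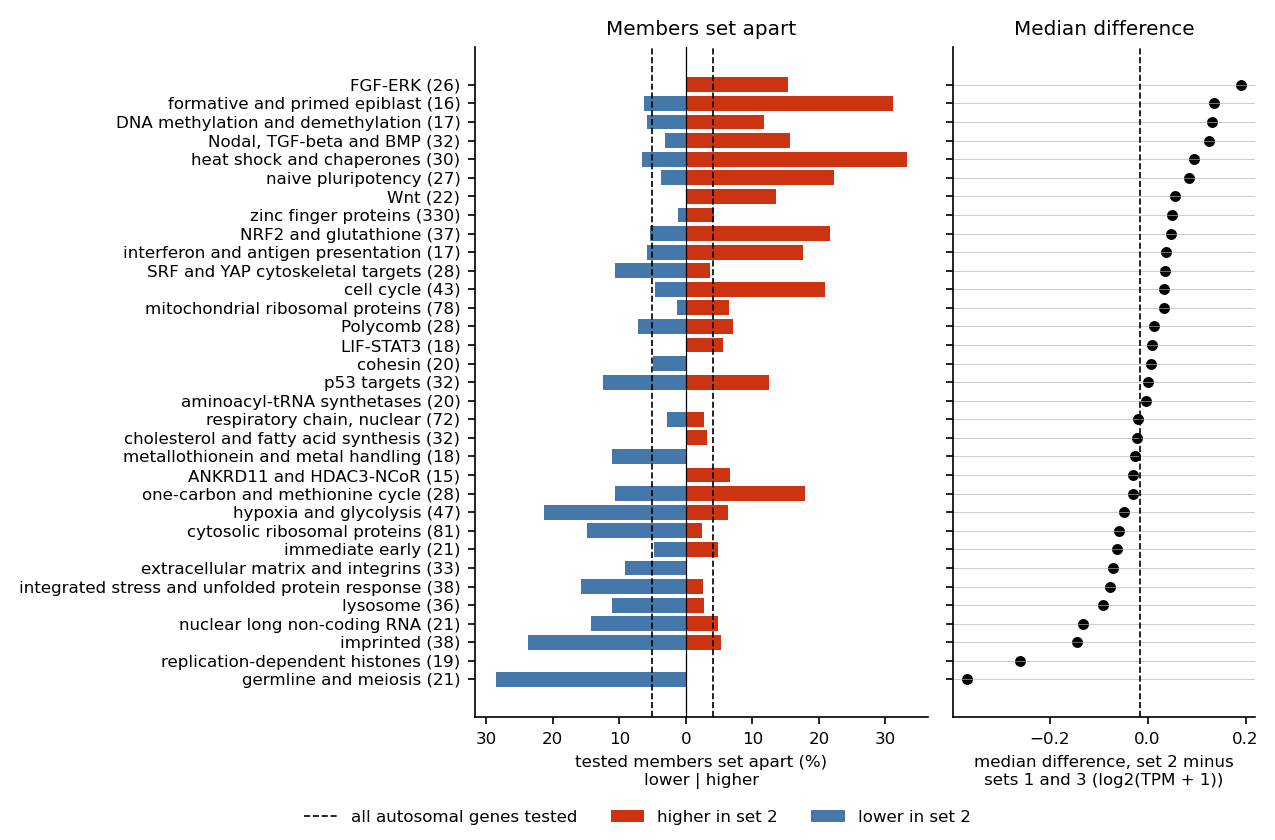
Left, percentage of tested members set apart and higher (red) or lower (blue) in mutant set 2 for each list with at least 15 tested genes, with the number tested in brackets and dashed lines at 4.13% and 5.11%, the shares over all autosomal genes; right, the median difference (log2(TPM + 1)) per list, with a dashed line at the median over all genes. Chaperones reach 33.3% higher and germline genes 28.6% lower.

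In the Polycomb list 2 of 28 were higher and 2 lower (7.14% each, against 4.13% and 5.11% of all tested genes). Kdm2b, which brings a Polycomb complex to CG islands, had 78.7 and 76.9 TPM in set 2 against 51.4 to 60.7, and Epop, an adaptor of PRC2, 129 and 128 against 85.8 to 103. Suz12, a core subunit of PRC2, was lower at 176 and 179 against 191 to 204. Cohesin genes had 1 of 20 set apart, the meiotic Stag3, which was lower (5.0%, against 5.11% of all tested genes). In the ANKRD11 and HDAC3-NCoR list 1 of 15 was higher, Ankrd10 (6.67%, against 4.13%). Of 330 zinc finger genes 14 were higher and 4 lower, 4.24% and 1.21% against 4.13% and 5.11% over all genes, and their median had opposite signs against set 1 (0.11) and set 3 (-0.03). Zfp61 had 26.9 and 26.5 TPM in set 2 against 14.5 to 18.9. The nuclear RNA Neat1, the scaffold of paraspeckles, had 155 and 152 TPM in set 2, 184 to 198 in the other mutant libraries and 67.1 to 80.4 in wild type. Epb41l4aos had 134 and 138 against 182 to 201, and the microRNA host Mir17hg was higher, with 9.51 and 8.47 against 4.94 to 6.22.

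The set apart genes were spread over all autosomes. The share of tested genes set apart ran from 6.81% on chromosome 5 to 11.4% on chromosome 10. The median difference per autosome ran from -0.03 on chromosome 19 to 0.00 on chromosome 8, and none was further than 0.017 from the median over all autosomal genes. Running medians over 25 neighbouring tested genes reached -0.25 on chromosome 13 between 21.4 and 23.6 Mb, a stretch from Pgbd1 to H2ac8 that holds replication-dependent histone genes, and 0.25 on chromosome 4 between 146.3 and 147.7 Mb, which holds clustered zinc finger genes with many near-identical copies. Of the 19 tested histone genes 0 were set apart, although their median was -0.26. They are low in poly(A) RNA. Zfp988 and Zfp992, members of the chromosome 4 family, were set apart and higher, at 32.0 and 33.3 TPM against 20.2 to 27.3 and at 11.2 and 9.99 against 6.42 to 8.30. Of the 56 nearest tested neighbours of the 28 leading genes, 12 were set apart (21.4%, against 9.24% of all genes), and H2-Eb1 and H2-Ab1 each count as the neighbour of the other. The neighbours of Atp1b2 moved in opposite directions, Trp53 higher (149 and 146 TPM against 114 to 125) and Sat2 lower (3.51 and 3.97 against 5.21 to 6.63).

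**Figure D5:**
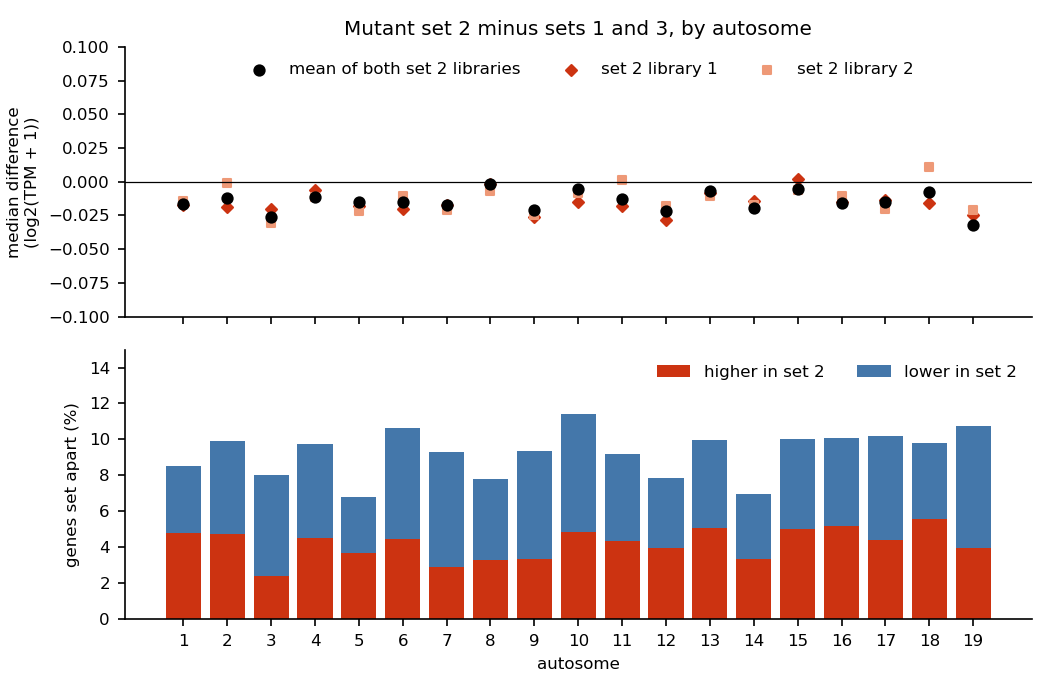
Upper panel, median difference of mutant set 2 from sets 1 and 3 (log2(TPM + 1)) over the tested genes of each autosome, for the mean of both set 2 libraries (black) and for each library (red, orange); lower panel, percentage of tested genes set apart, higher (red) and lower (blue). The medians run from -0.03 to 0.00 and the shares from 6.81% to 11.4%.

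Being set apart was related to level and length, as a description across genes. Genes were split into quartiles. In the quartile with the highest mean TPM (median 77.3), 9.14% were set apart and higher and 6.85% lower, and in that with the lowest (median 2.18) these shares were 0.848% and 2.54%. The higher genes had a median of 48.2 TPM and the lower ones 22.0 TPM, against 15.1 TPM over all tested genes. In the quartile with the shortest transcripts 4.86% were higher and 7.21% lower, and in that with the longest 2.71% and 3.30%. Transcript GC content had a smaller relation, with 3.78% higher and 4.11% lower in the lowest quartile and 3.95% and 5.74% in the highest. By gene type, 462 protein-coding genes of 10902 were higher and 576 lower, and of 220 lincRNA genes 10 were higher and 23 lower. Over all tested genes the shares were 4.13% higher and 5.11% lower.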

How the data were processed

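Poly(A) RNA-seq of 6 mutant and 4 wild-type E14 libraries was analysed from the TPM table the authors deposited, which lists 55401 genes. The submitters' processing notes name Trim Galore, STAR, RSEM, DESeq2 and the build mm10. Tool versions, settings, annotation and strand use were not found there or in the labels and are not given in the sources. TPM sum to 1 fixed total per library, so depth and counting error are unknown, and when abundant transcripts rise the values of the rest fall. Columns were matched to samples by name, and 0 per-sample columns were left out.

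Positions, types, length and GC content came from GENCODE M21 (GRCm38), where 55141 identifiers matched. Promoter windows came from RefSeq, with an entry for 106 of the 133 named genes. Members and lists were chosen with earlier results of these data known.

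The values log2(TPM + 1) of the 6 mutant libraries were fitted in limma 3.58.1 (R 4.3.3) with 1 coefficient per set, eBayes with a trend and two-sided tests, keeping genes whose mean reached 1 TPM. Benjamini-Hochberg adjusted p cover all tested genes, including those outside the autosomes, with a threshold of 0.05. A second fit used the 3 set means. Named genes were autosomal set apart genes ranked by the smaller of their absolute differences from set 1 and set 3 (14 per direction, predicted genes and pseudogenes passed over), up to 4 per list, and Ankrd11; genes named beyond this rule (other imprinted and pluripotency genes, class II genes, neighbours and the zinc finger genes of chromosome 4) were chosen after their values were seen. Named genes without a value in the text include some that are not reported here. Gene lists are described by counts and medians without a test. The fit was tested on simulated data. Alternatives were a smaller pseudocount (0.1), no filter, a minimum mean of 5 TPM, median-of-ratios and quantile scaling, a GC correction (lowess, span 0.3), a replicate block, variance moderation without a trend or made robust, all 10 libraries, a difference of at least 1, and leaving out each library, set 1 or set 3. Figures were drawn with matplotlib 3.10.9.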

Additional observations from a re-analysis of the deposited data

How the results depend on the processing

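The direction of all 133 named genes was kept under every alternative run. Except under rescaling and GC correction this was fixed in advance, since both set 2 libraries lay outside the other 4 at each gene. The numbers of genes past the threshold moved. The 1163 genes of the fit over libraries became 451 without a filter, 545 without a variance trend, 1908 with all 10 libraries, 47 at a difference of at least 1, 624 without set 1, 89 without set 3, and 35 to 773 without a library. The 1133 set apart genes became, in the same order, 431, 534, 1801, 44, 624, 89 and 35 to 746. Fits that left out a library or a set each had 2 residual degrees of freedom, against 3 in the main fit. The cause of the shifts was not tested. The 23 genes of the fit over set means became 15 with a pseudocount of 0.1, 0 without a filter, 91 at a mean of at least 5 TPM, 1 after median-of-ratios and 1 after quantile scaling, 35 after GC correction and 0 with 5 set means. Between sets 3 and 1, 151 genes became 259 at a mean of at least 5 TPM. Of the named genes, 132 were called, and 59 without a filter, 66 without a variance trend, 17 at a difference of at least 1, 66 without set 1, 22 without set 3 and 11 to 83 without a library. The widest deviation of an autosome median was 0.017, and 0.018 to 0.023 without a library of set 2. Median-of-ratios scaling moved the median difference by 0.014.

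The labels do not say whether replicate numbers pair libraries across sets. The correlations of same-numbered deviations between sets were -0.044, -0.048 and 0.106. Such weak values cannot decide whether libraries were paired, and the main fit used no pairing. With a replicate block 691 genes passed and 669 were set apart, and the pairwise contrasts gave 507 between sets 2 and 1, 372 between sets 2 and 3, and 28 between sets 3 and 1.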

Other observations

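Outside the autosomes, set 2 also differed from the other mutant sets. For comparison, 4.13% of autosomal tested genes were set apart and higher and 5.11% lower, with a median of -0.015. Of 8 tested Y-linked genes 5 were set apart, all lower, with a median difference of -0.57. Eif2s3y, a translation factor subunit, had 37.4 and 44.3 TPM in set 2, 126 and 125 in set 1, 127 and 143 in set 3, and 125 to 138 in wild-type libraries (difference -1.65 ± 0.08, limma adjusted p = 0.00138). Ddx3y, an RNA helicase, had 15.8 and 15.6 TPM in set 2, 23.1 and 21.3 in set 1, 52.3 and 55.4 in set 3, and 34.5 to 42.0 in wild type, and Uty, a histone demethylase family member, 5.21 and 4.04 TPM in set 2 against 5.96 to 13.2 in the other mutant libraries. These genes have X-linked relatives with similar sequence. Of 412 X-linked genes 12 were set apart and higher and 34 lower, with a median of -0.05. Of 13 mitochondrially encoded mRNAs 8 were set apart and higher and 0 lower, with a median of 0.31. Among these mt-Nd1 had 5331 and 5427 TPM in set 2 against 3621 to 4284 in sets 1 and 3, whereas mt-Co1 had 17087 and 17480 TPM against 15988 to 17574 and did not pass. The mitochondrial ribosomal RNAs were set apart in opposite directions. Lower in set 2 was mt-Rnr1, at 393 and 406 TPM against 459 to 554, and higher was mt-Rnr2, at 426 and 425 against 269 to 398.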
